A study of Mus musculus with 8 samples.

Results

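The genes described here are 10 members of the tumour necrosis factor (TNF) receptor family and its ligands that T cells can make. The receptors were Tnfrsf4 (OX40), Tnfrsf9 (the 4-1BB receptor), Tnfrsf18 (GITR), Tnfrsf1b (TNFR2, a receptor of TNF), Tnfrsf8 (CD30), Cd27 and Fas, and the ligands were Tnfsf8 (CD30 ligand), Tnfsf11 (RANKL) and Cd40lg (CD40 ligand). Each member was found by its symbol among the 27179 genes of one expression table, and all 10 were present. The table covered 8 RNA-seq libraries of splenic CD4+ T cells, 2 in each of 4 groups. All mice were 8-week-old offspring of the strain C.Cg-Foxp3tm2Tch/J, which carries a fluorescent reporter at the Foxp3 gene in every group. The groups Ctr_Unstim and Ctr_Stim came from parents given plain water, and Cd_Unstim and Cd_Stim from parents given 10 ppm cadmium chloride (Cd) in their drinking water until birth. Unstimulated cells were lysed at 0 hours and stimulated cells after 16 hours with beads carrying anti-CD3 and anti-CD28, so that time in culture and stimulation cannot be told apart. The 2 libraries of a group carry the numbers 6 and 7. The study mated mice in pairs so that a litter was a replicate, but the labels do not tie a library to an animal, and the p values measure the spread between these libraries.

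Receptors of this family sit in the cell membrane and bind trimeric ligands, most of which are membrane proteins of other immune cells. Many of them recruit TRAF adaptors and activate NF-kB, which prolongs the survival and division of T cells after antigen recognition. Fas instead carries a death domain and can start apoptosis through FADD and caspase-8. Naive T cells carry CD27, whereas OX40, the 4-1BB receptor and CD30 are known as receptors that appear after activation, and GITR and TNFR2 are known to be abundant on regulatory T cells. CD40 ligand on CD4+ T cells is the signal by which they help B cells.

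Between 15542732 and 25486791 reads were counted on genes in a library (median 19434588). The values are in RPKM, read numbers scaled to transcript length and to the counted reads of the library. Levels can be compared between genes only as far as these lengths are right. The values imply 4913 bases for Tnfrsf1b and 2228 for Tnfsf8, against 3818 and 3807 bases of exons in the GENCODE M21 annotation. For Tnfsf11 and Cd40lg they imply 2235 and 1250 bases, against 2236 and 1250. The 9 members other than Tnfrsf8 had between 153 and 8925 reads in a library. The T cell markers Cd4 and Cd3e were at 212 to 315 RPKM and 306 to 464 RPKM in the 8 libraries. The B cell marker Ms4a1 was at 0 in all libraries, and the B cell markers summed to 3.12 to 4.89 RPKM. Of 8 myeloid markers, 6 were under 1 RPKM in all libraries. Cd8a was at 0.0581 to 0.160 RPKM, whereas Cd8b1 was at 9.40 to 11.7 RPKM and the cytotoxic cell gene Nkg7 at 3.80 to 12.9 RPKM. The regulatory T cell factor Foxp3 was detected in every library, at 4.48 to 5.08 RPKM in unstimulated and 5.98 to 7.69 RPKM in stimulated cells. The cells were isolated by negative selection and then sorted. A legend of the study describes them as CD4+CD25- conventional T cells, whereas the labels give CD4+ T cells.

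In unstimulated cells the members summed to 299 to 322 RPKM, and in stimulated cells to 855 to 862 RPKM. Cd27 was the highest member before stimulation in all 4 libraries, with 42.5% to 45.1% of the sum, and Tnfrsf4 held 2.17% to 3.24%. After stimulation Tnfrsf4 was the highest in all 4 libraries, with 34.0% to 35.6% of the sum, followed by Tnfrsf18 with 22.4% to 23.0%, and Cd27 held 9.71% to 11.6%. In unstimulated control cells the order from the highest to the lowest mean was Cd27, Cd40lg, Tnfrsf18, Tnfsf8, Fas, Tnfrsf1b, Tnfrsf4, Tnfrsf9, Tnfsf11 and Tnfrsf8, and the libraries of neighbours overlapped only for Fas and Tnfrsf1b. In stimulated control cells the order was Tnfrsf4, Tnfrsf18, Tnfrsf9, Cd27, Cd40lg, Tnfsf8, Tnfrsf1b, Tnfsf11, Fas and Tnfrsf8, and neighbours overlapped for Tnfrsf9 with Cd27 and for Tnfsf8 with Tnfrsf1b. In Cd offspring the order was the same in unstimulated cells, where Tnfrsf9 and Tnfsf11 overlapped. In stimulated cells of Cd offspring Cd27 came before Tnfrsf9 and Tnfrsf1b before Tnfsf8, and Tnfsf11 and Fas overlapped. The shares and the order depend on the lengths used for RPKM, whereas the change of a gene between libraries does not.

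**Figure D1:**
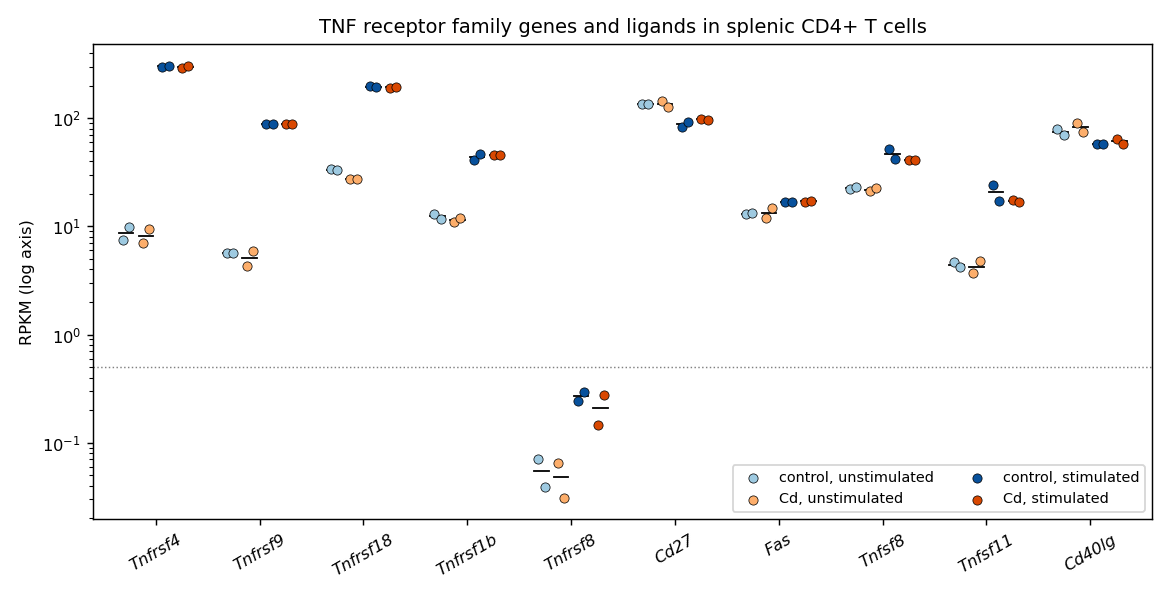
RPKM of the 10 members on a log axis, each point 1 library, each short line the mean of a group of 2, and the dotted line the mean of 0.5 RPKM that a gene needed to be tested. Tnfrsf4 lies at 7.0 to 9.93 RPKM in unstimulated and 291 to 306 RPKM in stimulated libraries, Cd27 and Cd40lg lie lower after stimulation, and the 8 libraries of Tnfrsf8 stay below the line.

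The first question was which members respond to stimulation. In control offspring 6 of the 9 members tested rose and none fell by the thresholds for stimulation, an adjusted p under 0.01 with a change of over 2-fold. By the same thresholds 18.7% of 12605 genes were called, 11.5% higher and 7.17% lower. The 6 were Tnfrsf4, Tnfrsf9, Tnfrsf18, Tnfrsf1b, Tnfsf11 and Tnfsf8. The median log2 fold change of the 9 members was 1.80, against 0.07 over all genes tested. In Cd offspring 5 of 9 rose and none fell, where 18.6% of genes were called, 11.4% higher and 7.24% lower, with a median of 1.99 against 0.05. Without the fold threshold, at an adjusted p under 0.05, the 9 members were called in both kinds of offspring, 7 higher and 2 lower, where 64.8% and 65.9% of genes were called. For the members tested, the stimulated and unstimulated libraries did not overlap in control or in Cd offspring, as for 83.1% of genes in each comparison. These tests were made with limma on log2(RPKM + 0.1), with p adjusted after Benjamini and Hochberg over all genes tested. In bulk RNA, fewer cells of a type and less RNA per cell cannot be told apart.

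Tnfrsf4 encodes OX40, a costimulatory receptor that sustains effector and memory T cells. It was at 7.46 and 9.93 RPKM in the unstimulated and at 299 and 306 RPKM in the stimulated libraries of control offspring. Values of Cd offspring were 7.0 and 9.44 RPKM at 0 hours and 291 and 303 RPKM at 16 hours. Every stimulated library was above every unstimulated one, and the exposures overlapped in both states. Tnfrsf4 rose 34.7-fold in control (log2 fold change 5.12 ± 0.16 SE, limma adjusted p = 4.49e-07) and 36.1-fold in Cd offspring (5.17 ± 0.16, adjusted p = 4.47e-07). Among the 12605 genes its change ranked 22nd by size in control and 21st in Cd offspring. The gene lies at chr4:156013595-156016613 (GRCm38) and overlaps Sdf4, so that reads of the 2 could be confused where the counting did not use strand, which is not given in the sources used here. Sdf4 itself was at 45.9 to 51.5 RPKM over the 8 libraries.

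Tnfrsf9, the costimulatory 4-1BB receptor, showed the second largest change among the members. Its unstimulated libraries held 5.63 and 5.63 RPKM in control and 4.34 and 5.96 RPKM in Cd offspring. Its stimulated libraries held 88.4 and 88.0 RPKM in control and 88.7 and 89.2 RPKM in Cd offspring. The 4 stimulated libraries lay within 1.2 RPKM of each other, far above the unstimulated ones. Tnfrsf9 rose 15.4-fold in control (log2 fold change 3.94 ± 0.13 SE, limma adjusted p = 4.68e-07) and 17.2-fold in Cd offspring (4.10 ± 0.13, adjusted p = 4.47e-07). The gene lies at chr4:150920155-150946104 and overlaps no other RefSeq gene.

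Tnfrsf18 encodes GITR, a costimulatory receptor that regulatory T cells carry at rest. It was at 33.6 and 33.1 RPKM in the unstimulated and 197 and 192 RPKM in the stimulated libraries of control offspring. With prenatal Cd, the libraries held 27.6 and 27.4 RPKM at rest and 191 and 194 RPKM once stimulated. The unstimulated libraries of the 2 exposures did not overlap, and the stimulated ones did. Tnfrsf18 rose 5.83-fold in control (log2 fold change 2.54 ± 0.042 SE, limma adjusted p = 8.94e-08) and 6.99-fold in Cd offspring (2.80 ± 0.042, adjusted p = 6.28e-08). The gene lies at chr4:156026322-156028894, 9.71 kb from Tnfrsf4, and overlaps the long noncoding RNA gene Gm16008, which was at 1.49 to 2.50 RPKM. The ratio of Tnfrsf4 to Tnfrsf18 within a library was 0.222 to 0.344 before stimulation and 1.51 to 1.59 after it.

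Tnfrsf1b encodes TNFR2, the receptor through which TNF costimulates T cells. It was at 13.0 and 11.8 RPKM in the unstimulated and 40.8 and 46.2 RPKM in the stimulated libraries of control offspring. The unstimulated Cd libraries held 10.9 and 12.0 RPKM and the stimulated ones 45.8 and 45.3 RPKM. The states were well apart, and the exposures overlapped in each. Tnfrsf1b rose 3.49-fold in control (log2 fold change 1.80 ± 0.083 SE, limma adjusted p = 1.76e-06) and 3.96-fold in Cd offspring (1.99 ± 0.083, adjusted p = 1.29e-06). The other receptor of TNF, Tnfrsf1a, which carries a death domain, was at 24.6 to 27.2 RPKM in unstimulated and 14.1 to 15.65 RPKM in stimulated libraries. The ratio of Tnfrsf1b to Tnfrsf1a within a library was accordingly 0.433 to 0.502 before stimulation and 2.90 to 3.07 after it.

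The summed level of regulatory T cell markers was also higher after stimulation, and without Il2ra and Ctla4 it was so mostly through 1 gene. The 8 markers left after Il2ra and Ctla4, which activation also induces, were taken out summed to 63.5 to 73.3 RPKM in unstimulated and 113 to 120 RPKM in stimulated libraries, and 1 of the 8, Itgae, was under 1 RPKM in all libraries. Lrrc32 was at 0 in 3 of the 4 unstimulated libraries and at 2.48 to 2.68 RPKM in the stimulated ones. Capg, an actin-capping protein, carried most of the difference, with a mean of 18.9 RPKM before and 57.0 RPKM after stimulation in control and of 17.1 and 57.9 RPKM in Cd offspring. Foxp3 had a mean of 4.96 RPKM before and 6.64 RPKM after stimulation in control offspring (log2 fold change 0.41, limma adjusted p = 0.0137, not called). In Cd offspring its log2 fold change was 0.68 (limma adjusted p = 0.0011, not called). Gpr83 had log2 fold changes of 0.80 in control and 0.75 in Cd offspring and Nrp1 of 0.67 and 0.84, none of them called. The states did not overlap for Foxp3, Gpr83 and Nrp1. Of the 9 regulatory T cell markers tested, with Il2ra and Ctla4, 8 had positive values in each kind of offspring. Of all 12605 genes, 6847 had positive values in control and 6686 in Cd offspring. Lrrc32 passed the filter only through its stimulated libraries, so that nothing is read from its sign. Izumo1r had log2 fold changes of -0.12 in control and -0.02 in Cd offspring and Ikzf2 of 0.35 and 0.18, none of them called, and the states overlapped for both genes. The 8 activation markers summed to 273 to 399 RPKM before and 1520 to 1609 RPKM after stimulation. The part of the regulatory T cell markers in the change of the receptors was not tested.

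**Figure D2:**
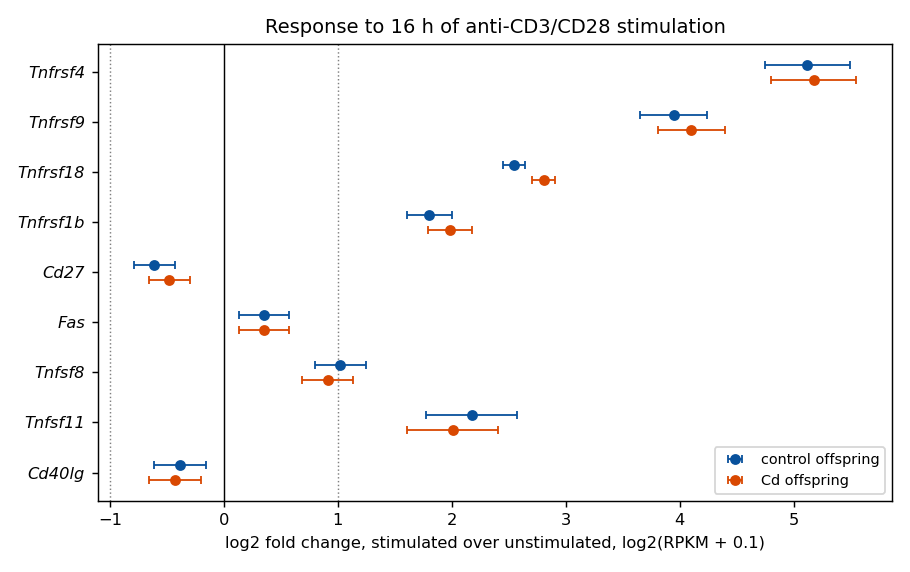
Log2 fold change of stimulated over unstimulated cells on the log2(RPKM + 0.1) scale for the 9 members tested, with 95% intervals of the limma fit, in control and Cd offspring, and dotted lines at 2-fold. Tnfrsf4, Tnfrsf9, Tnfrsf18, Tnfrsf1b and Tnfsf11 lie beyond 2-fold in both kinds of offspring, Tnfsf8 lies at the line, and Cd27 and Cd40lg lie below 0.

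Tnfrsf8, which encodes CD30, a receptor of activated lymphocytes, was the lowest member in every library. It was at 0.0706 and 0.0390 RPKM in the unstimulated and 0.245 and 0.294 RPKM in the stimulated libraries of control offspring. Values of Cd offspring were 0.0654 and 0.0309 RPKM at 0 hours and 0.144 and 0.274 RPKM at 16 hours. Every library was below the 0.5 RPKM that the mean of a gene had to reach, and Tnfrsf8 was therefore not tested. Over the pair of libraries of a group it had 3 reads before and 15 after stimulation in control offspring, a ratio of 4.90 per counted read (exact 95% interval 1.39 to 26.4). In Cd offspring it had 3 reads before and 16 after stimulation, a ratio of 4.49 (1.28 to 24.0). The intervals cover counting error only, and the reads are the smallest whole numbers that give the values, so that the true reads may be a multiple of them. In a fit with no filter on low genes its log2 fold change was 1.26 ± 0.27 (SE) in control (limma adjusted p = 0.00753) and 1.04 ± 0.27 in Cd offspring (adjusted p = 0.0169).

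Tnfrsf8 and Tnfrsf1b are neighbours on chromosome 4, at chr4:145267132-145315164 and chr4:145212368-145246870, with 20.3 kb between them. The 250 bases before the start site of both are shown because the pair differ in level and share their neighbourhood, together with the first of the 2 start sites of Tnfrsf9. Capitals mark matches to TGANTCA, the site of AP-1 factors, and to the NF-kB consensus, both searched on either strand of 300 bases from 250 before to 50 after each start. The sequences are from RefSeq (GRCm38.p6), at chr4:145315165-145315414 on the minus strand, chr4:145246871-145247120 on the minus strand and chr4:150919905-150920154 on the plus strand. No exon of GENCODE M21 lies in these windows.
Tnfrsf8: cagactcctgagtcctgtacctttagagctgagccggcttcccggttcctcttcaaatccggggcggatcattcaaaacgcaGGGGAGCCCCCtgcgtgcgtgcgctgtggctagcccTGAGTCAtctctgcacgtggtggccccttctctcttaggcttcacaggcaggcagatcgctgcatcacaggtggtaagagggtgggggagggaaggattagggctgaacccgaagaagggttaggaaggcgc
Tnfrsf1b: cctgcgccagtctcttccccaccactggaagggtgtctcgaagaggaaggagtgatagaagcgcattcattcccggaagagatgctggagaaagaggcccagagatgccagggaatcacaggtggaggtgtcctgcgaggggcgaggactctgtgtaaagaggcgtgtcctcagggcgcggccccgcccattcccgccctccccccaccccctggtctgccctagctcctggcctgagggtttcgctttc
Tnfrsf9, first start: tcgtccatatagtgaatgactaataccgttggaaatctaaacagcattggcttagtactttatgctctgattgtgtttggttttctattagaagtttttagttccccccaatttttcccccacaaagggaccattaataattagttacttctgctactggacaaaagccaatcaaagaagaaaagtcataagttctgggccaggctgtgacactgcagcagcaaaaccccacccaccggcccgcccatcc

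The Tnfrsf8 window held 1 AP-1 match at -132 to -126 and 2 overlapping NF-kB matches at -168 to -158 from the start, whereas the Tnfrsf1b window and the first Tnfrsf9 window held neither. The second start of Tnfrsf9, 7.84 kb further on, had the AP-1 match TGAGTCA at -15 to -9 and 2 overlapping NF-kB matches, GGGGATTTCC and GGGATTTCCC, at -43 to -33. Fas had 1 AP-1 match at -211 to -205. Neither motif was found in the windows of Tnfrsf4, Tnfrsf18, Cd27, Tnfsf8 and Tnfsf11, and the table of promoters had an entry for 9 of the 10 members, without Cd40lg. Of 32851 such windows, 7.81% held the AP-1 and 8.46% the NF-kB match. A match describes the letters of a window and is not evidence of binding. Of the 46 receptors and ligands of the family listed here, 9 lie on chromosome 4, among them 6 of the 10 members.

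Cd27, a receptor of naive and memory T cells, was the highest member at rest. It was at 134 and 134 RPKM in the unstimulated and 83.3 and 92.8 RPKM in the stimulated libraries of control offspring. With prenatal Cd, the libraries held 145 and 127 RPKM at rest and 99.0 and 96.0 RPKM once stimulated. Every stimulated library was below every unstimulated one. The log2 fold change was -0.61 ± 0.077 (SE, limma adjusted p = 0.000269) in control and -0.48 ± 0.077 (adjusted p = 0.00102) in Cd offspring, within 2-fold in both. The gene, at chr6:125232620-125237136, overlaps the noncoding gene E130112N10Rik, which was at 7.36 to 11.4 RPKM in unstimulated and 4.26 to 5.32 RPKM in stimulated libraries. The sum of the 7 T cell markers was also lower, at 2843 to 3023 RPKM before and 1946 to 2054 RPKM after stimulation, although Cd5 had a log2 fold change of 0.11 in Cd offspring. The CD8 and NK markers summed to 26.2 to 30.2 RPKM before and 15.2 to 18.5 RPKM after stimulation, with NK genes such as Klrb1c and Nkg7 lower and Cd8b1 at 0.13 and 0.14 on the log2 scale in control and Cd offspring. The myeloid markers summed to 6.24 to 7.90 RPKM and 3.21 to 4.31 RPKM. Their part in the change of Cd27 was not tested.

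Fas, the death receptor, varied least with stimulation. It was at 13.0 and 13.3 RPKM in the unstimulated and 16.7 and 16.9 RPKM in the stimulated libraries of control offspring. The unstimulated Cd libraries held 12.0 and 14.8 RPKM and the stimulated ones 16.9 and 17.2 RPKM. The stimulated libraries were above the unstimulated ones in both, by less than 2-fold. The log2 fold change was 0.36 ± 0.094 (SE, limma adjusted p = 0.0116) in control and 0.35 ± 0.094 (adjusted p = 0.0116) in Cd offspring, which missed both thresholds for stimulation.

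Of the ligands, Tnfsf11 showed the largest change. It encodes RANKL, which drives osteoclasts and dendritic cells through RANK. It was at 4.65 and 4.2 RPKM in the unstimulated and 24.0 and 17.3 RPKM in the stimulated libraries of control offspring. Values of Cd offspring were 3.71 and 4.77 RPKM at 0 hours and 17.5 and 16.9 RPKM at 16 hours. The states did not overlap, and the stimulated control libraries differed from each other by 0.47 on the log2 scale. Tnfsf11 rose 4.52-fold in control (log2 fold change 2.18 ± 0.17 SE, limma adjusted p = 2.17e-05) and 4.02-fold in Cd offspring (2.01 ± 0.17, adjusted p = 3.36e-05).

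Tnfsf8 encodes the ligand of CD30. It was at 22.4 and 23.4 RPKM in the unstimulated and 51.7 and 41.9 RPKM in the stimulated libraries of control offspring, and at 21.1 and 22.5 RPKM before and 40.7 and 41.3 RPKM after stimulation in Cd offspring. The states did not overlap. Its fold lay at the threshold, 2.03 in control (log2 fold change 1.02 ± 0.095 SE, limma adjusted p = 5.27e-05) and 1.88 in Cd offspring (0.91 ± 0.095, adjusted p = 9.93e-05), so that it was called in the former alone. The difference between them, -0.11 ± 0.13 on the log2 scale, was not called (adjusted p = 0.774). The call in control offspring was lost without Ctr_Unstim replicate 6 (log2 fold change 0.99) and without Ctr_Stim replicate 6 (0.87), and under 3 of the other settings.

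Cd40lg, through which CD4+ T cells help B cells, was abundant before stimulation. It was at 79.6 and 70.7 RPKM in the unstimulated and 57.3 and 57.8 RPKM in the stimulated libraries of control offspring. With prenatal Cd, the libraries held 89.9 and 75.1 RPKM at rest and 64.0 and 57.9 RPKM once stimulated. The stimulated libraries were the lower ones in both. The log2 fold change was -0.38 ± 0.098 (SE, limma adjusted p = 0.0102) in control and -0.43 ± 0.098 (adjusted p = 0.00572) in Cd offspring, within 2-fold.

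The partners of the members were measured in the same libraries. TNF and lymphotoxin alpha, which both bind TNFR2, were transcribed by these cells: Tnf went from a mean of 21.2 to 103 RPKM in control offspring and rose by 2.27 ± 0.061 on the log2 scale (SE, limma adjusted p = 2.83e-07), and Lta went from 9.42 to 53.2 RPKM and rose by 2.49 ± 0.19 (adjusted p = 1.88e-05). The OX40 ligand Tnfsf4 was at 0.138 and 0.153 RPKM in the unstimulated and 5.88 and 6.65 RPKM in the stimulated libraries of control offspring and rose by 4.69 ± 0.21 (adjusted p = 1.48e-06). It had 4 and 4 reads in these unstimulated libraries and 147 and 208 in the stimulated ones. Tnfsf4 passed the filter only through its stimulated libraries, so that the size of its change rests on those few reads. In the 4 stimulated libraries its level was 1.72% to 2.32% of that of Tnfrsf4. The ligand of the 4-1BB receptor, Tnfsf9, went from a mean of 1.13 to 2.40 RPKM in control offspring, which missed the threshold (1.03 ± 0.28, adjusted p = 0.0124), and rose by 1.19 ± 0.28 in Cd offspring (adjusted p = 0.00634). Tnfsf9 had 17 to 69 reads in a library of Cd offspring. Its call there was lost with a pseudocount of 0.5 or 1, no filter, only the libraries compared, either replicate block and no trend. It was also lost without any 1 library other than Ctr_Unstim replicate 7 and Cd_Unstim replicate 7. Fasl, the ligand of Fas, was at 7.72 to 8.28 RPKM in unstimulated and 6.04 to 6.47 RPKM in stimulated libraries, within 2-fold.

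Other partners were at or near 0. The GITR ligand Tnfsf18 had 4 to 7 reads in each unstimulated library and 0 in each stimulated one, where 3 reads would have given 0.0570 to 0.0935 RPKM. The CD27 ligand Cd70 had at most 2 reads in a library, RANK (Tnfrsf11a) at most 1, and Cd40 at most 8.

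**Figure D3:**
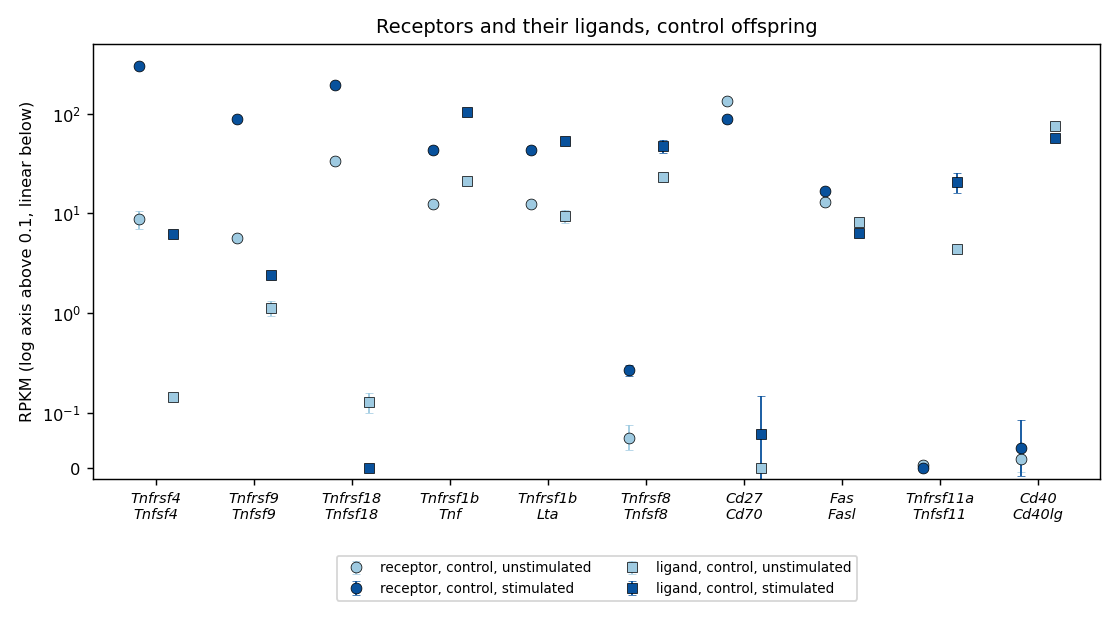
Mean RPKM of receptors (circles) and their ligands (squares) in unstimulated and stimulated cells of control offspring, with bars for the SD of 2 libraries, on an axis that is logarithmic above 0.1 RPKM and linear below. Tnfrsf18, Cd27, Tnfsf8, Tnfsf11 and Cd40lg are each far above their partner, which lies below 0.3 RPKM, whereas Tnfrsf1b is accompanied by Tnf and Lta.

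Of 21 other receptors of the family, 12 were tested. In control offspring 2 rose, Tnfrsf10b (TRAIL receptor, log2 fold change 1.34 ± 0.090 SE, limma adjusted p = 9.75e-06) and Tnfrsf21 (2.83 ± 0.32, adjusted p = 0.000149), and 2 fell, Relt by 1.16 and Tnfrsf12a by 1.0, with a median over the 12 of 0.26. Of all genes tested 11.5% rose and 7.17% fell in control offspring, and 11.4% and 7.24% in Cd offspring. Tnfrsf21 had 16 and 6 reads in the unstimulated control libraries and passed the filter only through its stimulated ones. In Cd offspring Tnfrsf10b and Tnfrsf21 rose and Relt fell, and Tnfrsf12a was at -0.95. Among those with a mean of at least 10 RPKM, the herpesvirus entry mediator Tnfrsf14 had a mean of 60.7 RPKM, the death receptor Tnfrsf25 28.7 RPKM, Tnfrsf26 25.9 RPKM, Tnfrsf1a 20.3 RPKM, Relt 11.7 RPKM and Tnfrsf22 10.4 RPKM. Their log2 fold changes in control offspring were 0.57 for Tnfrsf14, 0.69 for Tnfrsf25, 0.03 for Tnfrsf26, -0.84 for Tnfrsf1a and 0.18 for Tnfrsf22.

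Of 15 other ligands, 8 were tested. In control offspring 4 rose, Tnf, Lta, Tnfsf4 and Tnfsf14 (LIGHT, 1.17 ± 0.12 SE, limma adjusted p = 8.34e-05), and Tnfsf10 (TRAIL) fell by 1.48 ± 0.081 on the log2 scale (adjusted p = 3.51e-06), with a median over the 8 of 1.10. Of all genes tested 11.5% rose and 7.17% fell in control offspring, and 11.4% and 7.24% in Cd offspring. In Cd offspring the 4 and Tnfsf9 rose, the latter by a call that several alternatives lost, and Tnfsf10 fell by 1.52. TRAIL and its receptor Tnfrsf10b thus moved in opposite directions in both. Lymphotoxin beta, Ltb, had a mean of 318 RPKM over the 8 libraries, above every member in unstimulated cells (322 to 394 RPKM) and below Tnfrsf4 in the 4 stimulated libraries (256 to 275 RPKM), and a log2 fold change of -0.54 ± 0.093 in control offspring.

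All 20 adaptors and proximal signalling genes were tested, as they were expressed at rest. In control offspring 3 rose, the noncanonical NF-kB subunits Nfkb2 (log2 fold change 1.78 ± 0.083 SE, limma adjusted p = 1.79e-06) and Relb (1.51 ± 0.10, adjusted p = 9.02e-06) and the adaptor Traf6 (1.03 ± 0.064, adjusted p = 6.52e-06, just past 2-fold), and Tnfaip3, which encodes the NF-kB inhibitor A20, fell by 1.64 ± 0.24 (adjusted p = 0.000583). In Cd offspring Nfkb2 and Relb rose and Tnfaip3 fell by 1.3 ± 0.24, and Traf6 was at 0.86. The unstimulated libraries of Tnfaip3 were spread widely, at 248 and 174 RPKM in control and 208 and 126 RPKM in Cd offspring. Its stimulated libraries were at 63.0 to 68.6 RPKM. The call of Tnfaip3 in Cd offspring was lost without Cd_Unstim replicate 6 and without Cd_Stim replicate 7. The median over the 20 was 0.18 in control offspring. By the thresholds for stimulation 11.5% of all genes rose and 7.17% fell in control offspring, and 11.4% and 7.24% in Cd offspring. Without the fold threshold 10 of the 20 were higher and 8 lower in each kind of offspring, where 64.8% of all genes were called in control and 65.9% in Cd offspring. Among the TRAF adaptors within 2-fold, Traf4 (0.82), Traf1 (0.62) and Traf3 (0.50) had positive and Traf2 (-0.42) and Traf5 (-0.99) negative log2 fold changes in control offspring. Casp8, the caspase that Fas engages, was at -0.90, and its inhibitor Cflar at 0.57. The ubiquitin ligases Birc3 and Birc2 were at 0.69 and -0.32, the deubiquitinase Cyld at -0.58 and the NF-kB inducing kinase Map3k14 at -0.64. The remaining genes with a mean of at least 10 RPKM, Tank, Chuk, Ripk1 and Tradd, lay between -0.19 and 0.52. Neither of the sheddases Adam10 and Adam17, which cut members of the family from the cell surface, was called (0.38 and 0.03).

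The second question was whether prenatal Cd changed these genes. In unstimulated cells 1 of the 9 members tested, Tnfrsf18, was called at an adjusted p under 0.05, and it was lower in Cd offspring, where 0.896% of genes were called, 0.135% higher and 0.762% lower. At an unadjusted p under 0.05 it was also the 1 member, among 13.9% of genes. Its 4 values, 33.6 and 33.1 RPKM in control and 27.6 and 27.4 RPKM in Cd offspring, gave a log2 fold change of -0.28 ± 0.042 (SE, 95% interval -0.37 to -0.18, limma adjusted p = 0.0364). Of the 9 members it was the only one whose groups did not overlap, as for 42.3% of genes, and 8 members were not called. An exact two-sided permutation test of 2 against 2 libraries cannot go below p = 0.333. The value stayed between -0.29 and -0.26 under the alternatives that could move it. These were the pseudocounts, scalings, voom and leaving out an unstimulated library, and the others leave the value as it is. The call did not hold: it was lost in 6 of 10 other settings, and without each of the 8 libraries in turn Tnfrsf18 was not called.

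The sums of regulatory T cell and of activation markers were lower in unstimulated Cd libraries too, but their genes were divided. The sum of the 8 regulatory T cell markers without Il2ra and Ctla4 was 73.3 and 68.8 RPKM in unstimulated control and 63.5 and 64.7 RPKM in unstimulated Cd libraries, and Foxp3 was at 5.08 and 4.84 RPKM against 4.48 and 4.72 RPKM. Of the 9 regulatory T cell markers tested 6 had negative and 3 positive log2 fold changes, and none was called. The activation markers summed to 399 and 371 RPKM against 352 and 273 RPKM, with 5 negative and 3 positive values. Cd69 was lower in Cd offspring, at 156 and 136 RPKM in control against 116 and 106 RPKM in Cd libraries. So were Nr4a1, at 177 and 173 RPKM against 165 and 104 RPKM, and Egr2, at 8.93 and 8.11 RPKM against 7.66 and 7.55 RPKM. Il2ra was at 1.97 and 1.80 RPKM against 2.19 and 2.001 RPKM and Tfrc at 16.9 and 16.8 RPKM against 17.1 and 17.6 RPKM, both higher in Cd offspring without overlap and not called. Il2 was the 1 activation marker called. It rested on few reads, 12 and 8 at rest in control offspring against 5 and 6 with prenatal Cd, and passed the filter only through its stimulated libraries, so that nothing is read from its lower level. The part of either list in the level of Tnfrsf18 was not tested.

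The other members had intervals that spanned 0 in unstimulated cells. Their log2 fold changes ran from -0.14 for Tnfrsf9 (95% interval -0.44 to 0.15) to 0.13 for Cd40lg (-0.10 to 0.36), with Cd27 at 0.02 (-0.16 to 0.20) and Fas at 0.02 (-0.20 to 0.24). The widest interval was that of Tnfsf11, from -0.47 to 0.33. A log2 fold change as low as that of Tnfrsf18 lay inside the intervals of Tnfrsf4, Tnfrsf9, Tnfrsf1b, Tnfsf8 and Tnfsf11, and one of the same size in the other direction inside those of Tnfrsf4, Tnfsf11 and Cd40lg.

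In stimulated cells 0 of 9 members were called, and 0% of the 12605 genes were. At an unadjusted p under 0.05 there were 414 genes, or 3.28%, and 0 members, and limma voom on recovered reads called 0 genes. With no filter on low genes 9 were called, none of them a member. Tnfrsf18 was at -0.02 (95% interval -0.11 to 0.08), Tnfrsf4 at -0.03 (-0.40 to 0.35) and Tnfrsf9 at 0.01 (-0.28 to 0.31). The members furthest from 0 were Tnfsf11 at -0.24 (-0.64 to 0.16), Tnfsf8 at -0.18 (-0.41 to 0.04) and Cd27 at 0.15 (-0.03 to 0.33). The 2 Cd libraries did not overlap with the control libraries for 5 of the 9 members, as for 36.7% of genes.

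The response to stimulation was compared between Cd and control offspring as an interaction. In the limma fit 0 of the 9 members were called, where 0.357% of genes were, 0.301% higher and 0.0555% lower. At an unadjusted p under 0.05 there was 1 member, Tnfrsf18, among 10.6% of genes. Tnfrsf18 had the smallest p, with a response larger by 0.26 ± 0.059 on the log2 scale in Cd offspring (SE, 95% interval 0.12 to 0.40, limma adjusted p = 0.18). The interaction shares its 4 unstimulated libraries with the difference at rest. The others ran from -0.17 for Tnfsf11 (-0.73 to 0.40) to 0.18 for Tnfrsf1b (-0.09 to 0.46), and Fas was at -0.0012 (-0.31 to 0.31). No gene of the 4 lists of receptors, ligands, adaptors and sheddases was called in either comparison of Cd or in the interaction.

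**Figure D4:**
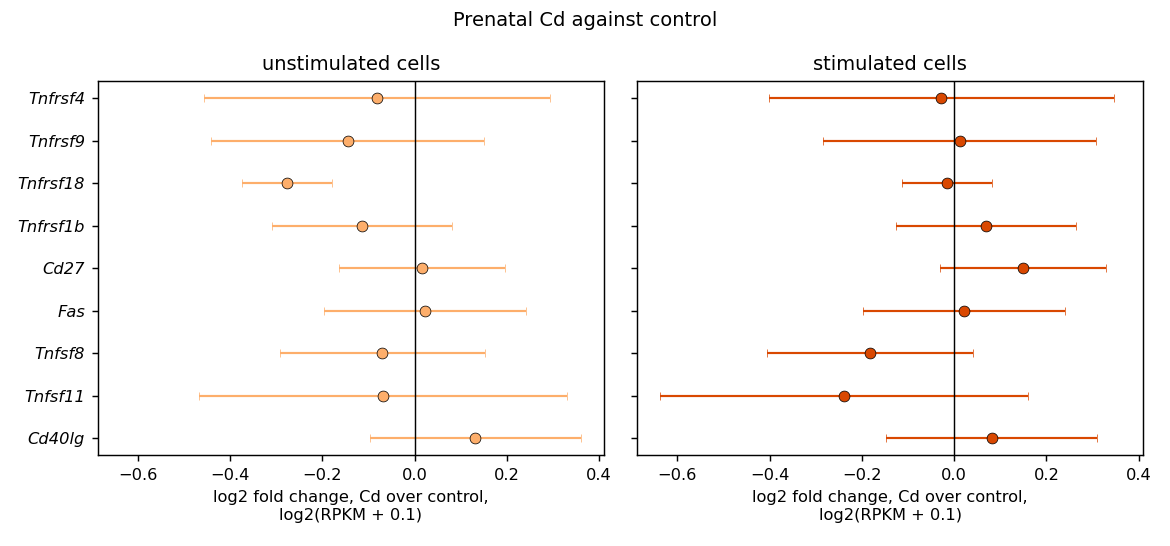
Log2 fold change of Cd over control offspring with 95% intervals of the limma fit for the 9 members tested, in unstimulated (left) and stimulated cells (right). Tnfrsf18 in unstimulated cells, at -0.28, is the one value whose interval does not reach 0.

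As a description, the gene with the most similar profile over the 8 libraries was sought for each member among 8672 other genes with a mean of at least 5 RPKM. Pearson's r on log2(RPKM + 0.1) was highest with Rpl7l1 for Tnfrsf4, Bcat1 for Tnfrsf9, Rrp15 for Tnfrsf18, Srsf9 for Tnfrsf1b, Notch2 for Tnfsf8, Anp32e for Tnfsf11, Smg9 for Cd27, Med21 for Fas, Lta4h for Cd40lg and Ccdc115 for Tnfrsf8, and lay between 0.980 and 0.9998. Such values are common here, because the 8 libraries fall into the 2 states: between 826 genes (Cd40lg) and 3042 genes (Tnfrsf4) had an r above 0.9 with a member.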

How the data were processed

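RNA of 8 libraries of splenic CD4+ T cells was sequenced. Per the labels and the study's methods, mm10 was the genome the authors aligned to, with Subread, and featureCounts gave counts per RefSeq transcript. Versions, strand setting and the treatment of reads with several hits are not given in the sources used here. The deposited log2 values are log2(RPKM + 1) + 0.0001, read from the values themselves, and were turned back into RPKM. The spacing of low values gave back whole reads for 17794 genes and the total of each library (15542732 to 25486791).

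The 12605 of 27179 genes whose mean reached 0.5 RPKM were fitted as log2(RPKM + 0.1) with limma 3.58.1 (R 4.3.3), 4 group means and a trended prior. On the log2(RPKM + 0.1) scale the change of a low gene is understated. Stimulation was called past 2-fold with an adjusted p under 0.01, after the study's thresholds, and Cd and the interaction at an adjusted p under 0.05. The fit was tested on simulated data.

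The members and lists were chosen with earlier results of these data known. Named were all members, the called genes of the family lists, list genes with a mean of at least 10 RPKM and the gene most like each member. Known binding partners and marker genes were named besides, after their values were seen. The alternatives were pseudocounts, filters, scalings, replicate blocks, no trend, voom, only the libraries compared, no fold threshold and each library left out. Python 3.11.15 with pandas 2.3.3 and matplotlib 3.10.9 prepared tables and plots. The value of 1 marker gene is not reported here.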

Additional observations from a re-analysis of the deposited data

How the results depend on the processing

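The direction of each of the 9 members tested under stimulation was the same in all 20 alternatives, but many of these could not change it. Filters, only the libraries compared, replicate blocks, no trend and no fold threshold leave a log2 fold change as it is. Leaving out a library of the other exposure does so too. Only the pseudocounts, scalings, voom and the other left-out libraries could move a direction. Tnfrsf8 had a fitted value only with no filter. Without a fold threshold, at an adjusted p under 0.05, 9 members and 37 genes of the family lists were called in control offspring in place of 6 and 13, and 9 members and 35 list genes in Cd offspring in place of 5 and 12. Of all genes tested 64.8% were called in control and 65.9% in Cd offspring at that setting. The call of 1 member in unstimulated Cd cells became 0 with no filter, only the libraries of the comparison, quantile normalization, no trend, voom on the recovered reads and the replicate block by number. Without a library it ranged from 0 to 1, the 1 being Tnfrsf9 without Cd_Unstim replicate 7. Quantile normalization moved the median of all genes in control offspring from 0.07 to -0.033. The call of Tnfsf8 in control offspring was lost with a pseudocount of 1 (0.99), median-of-ratios scaling (0.94) and quantile normalization (0.87).

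The numbers 6 and 7 were not used to pair libraries in the main fit, because the labels do not tie a number to an animal. As a check, the deviations of the libraries from their group means correlated at -0.11 to 0.064 between groups. Only groups of the same exposure could share an animal. Between the unstimulated and stimulated groups the value was 0.064 in control and 0.0085 in Cd offspring. With a replicate block by number 6 members rose in control and 5 in Cd offspring, and 0 were called for Cd.

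The interaction of Fas was 0.019 under median-of-ratios scaling. Uncalled values changed sign without a library: for Cd in unstimulated cells Tnfrsf4 (-0.29 to 0.13), Tnfrsf9 (-0.37 to 0.0805), Cd27 (-0.081 to 0.11), Fas (-0.13 to 0.17) and Tnfsf11 (-0.25 to 0.11); for Cd in stimulated cells Tnfrsf4 (-0.058 to 0.0031), Tnfrsf18 (-0.034 to 0.0033) and Tnfrsf1b (-0.021 to 0.16); for the interaction Tnfrsf4 (-0.16 to 0.27), Tnfrsf9 (-0.068 to 0.38), Fas (-0.15 to 0.15), Tnfsf8 (-0.26 to 0.0404), Tnfsf11 (-0.40 to 0.067) and Cd40lg (-0.18 to 0.0804). The causes were not tested. A fit without a library leaves 1 in its group, which is assumed to vary like the others. Near 2-fold in control offspring, Traf6 was not called with a pseudocount of 1, either other scaling, or without Ctr_Unstim replicate 7 or Ctr_Stim replicate 6, and Tnfrsf12a with a pseudocount of 0.5 or 1, voom, or without the same libraries.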
